A study of Mus musculus with 4 samples.

Results

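The immunoglobulin heavy chain region was taken as chromosome 12 from 113000001 to 117500000 (mm8), a span of 4.5 Mb at the distal end of the chromosome. It was defined by its position, with earlier results of these data known, among them a stretch without pro-B reads and more pro-B reads beyond it. It comprised 4500 windows of 1 kb, of 2630717 such windows over the whole genome. Total histone H3 had been precipitated from chromatin and sequenced (ChIP-seq) in 4 mouse libraries, 1 per group. V6.5 embryonic stem (ES) cells, a line of C57BL/6-129 background taken off feeder cells onto gelatin, were either untreated or kept for 24 h in 10 uM SB431542, which blocks the kinase of TGF-beta type I receptors. C2C12, a myoblast line, had formed myotubes over 48 h in 2% horse serum with selenium, transferrin and insulin, and 38B9, a pro-B line, was grown in RPMI with 10% FCS. The labels give a strain for the ES line only, and each group is a single cell line. No markers of these cell types could be checked, because no annotation of the genome build of the files was at hand.

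The heavy chain locus (Igh) encodes the heavy chains of antibodies. At the pro-B stage, the RAG recombinase first joins a D to a J segment and then a V segment to the joined pair, and the DNA between the joined segments is lost from that chromosome. V segments are numerous and arose by repeated duplication, so that much of the locus resembles other parts of itself. In the gene table of another mouse assembly (GRCm38.p6), used here for names and order only, the genes Crip1, Tedc1 and Tmem121 lie on the centromeric side, followed by the 8 constant genes (from Igha to Ighm), 4 J segments, 10 D segments and 121 V segments, with further 10 D and 63 V pseudogenes. On the telomeric side Zfp386, Vipr2, Wdr60, Esyt2, Ncapg2 and Ptprn2 follow. No gene was placed on the reads, so every position in the results is a position and not a gene.

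The libraries held 13568407 to 14663315 reads with 1 reported place (1-place reads). After repeats of a position and strand had been reduced to 1, they held 12432118 to 13469179 distinct reads on the autosomes, the totals to which each library was scaled. Reads with 2 reported places (2-place reads) are listed at both places, and their lines were counted apart and scaled to the same totals. With 1 library per group no difference had a replicate check and no test was made. Ratios carry exact conditional binomial 95% intervals, which express counting error alone, as amplified reads lacking molecular identifiers may repeat a molecule. No input library was used here, so the number of DNA copies and the H3 on each copy cannot be told apart. Sequencing run 100804 gave the SB431542 library and run 100623 the rest, so treatment and run cannot be told apart.

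Over the whole region, reads in pro-B cells were higher than in every other library. The region held 16904 distinct 1-place reads in untreated ES cells, 16464 with SB431542, 14423 in myotubes and 28100 in pro-B cells. These were 0.129%, 0.122%, 0.116% and 0.216% of the autosomal reads. The pro-B share was 1.68 times that of untreated ES cells (1.65 to 1.71), the myotube share 0.901 times (0.882 to 0.922) and the SB431542 share 0.9497 times (0.929 to 0.970). All ratios share the untreated ES library as their reference, and scaling to the median autosomal bin of 100 kb in place of the total would raise every pro-B ratio by 0.13 on the log2 scale. On chromosome 12 before the region the pro-B, myotube and SB431542 ratios were 1.00, 1.01 and 1.00, and beyond the region they were 1.06 (1.04 to 1.09), 0.990 and 0.997. In pro-B cells 4.73% of the region's 1-place reads were repeats of a position and strand, against 2.803% over that library, whereas the other libraries repeated at 2.52% (untreated ES), 5.35% (SB431542) and 3.48% (myotube) here and at 2.83%, 5.53% and 3.43% overall.

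The pro-B excess was unevenly spread, and 4 parts could be drawn along the region. The proximal part ran from 113000001 to 113877447. It ended at a stretch of 145 kb, 113877448 to 114022505, that held no 1-place read in pro-B cells. The middle part followed, from 114022506 to 116500000 (2.48 Mb), and ended with the last bin of 100 kb in which at least 20% of the reads of untreated ES cells were 2-place lines. The distal part comprised the last 1 Mb. Bins that rich in 2-place lines numbered 23 in the region, began at 113700001, and reached 87.6% in untreated ES cells, where the autosomes as a whole had 6.07%. The bins that rich set the distal edge, so none could lie beyond it. Before the stretch, the bin from 113700001 was among them. That from 113800001 was not, with 388 1-place reads and 75 2-place lines in untreated ES cells. Within the middle part, the bins from 114700001, 114800001, 115000001 and 115400001 were not that rich either. Their pro-B ratios were 2.608, 2.175, 3.263 and 2.469. Of the region's 7657 2-place lines in untreated ES cells, 6833 lay in the middle part.

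**Figure D1:**
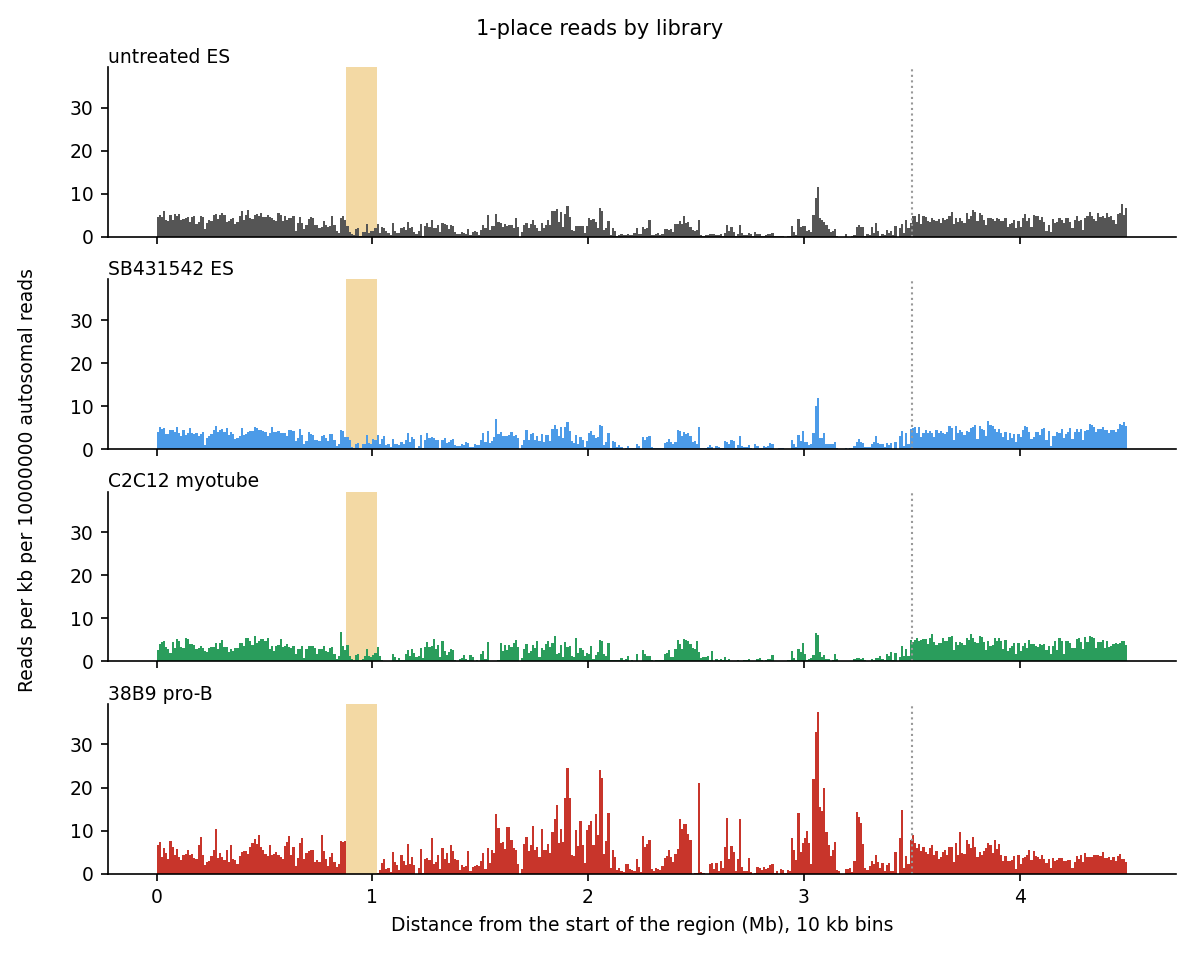
Distinct 1-place reads per kb and per 10000000 autosomal reads (vertical axis) in bins of 10 kb along the region (horizontal axis, Mb from its start), 1 panel per library. The shaded band is the stretch without pro-B reads and the dotted line the end of the middle part. The pro-B panel shows narrow columns in the middle part that the other panels lack or show at a lower height, while the proximal and distal parts differ less between panels.

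In the proximal part pro-B cells were closer to untreated ES cells than in the region as a whole. Untreated ES cells had 4760 reads, SB431542-treated cells 4292, myotubes 3883 and pro-B cells 5669. The pro-B ratio was 1.20 (1.16 to 1.25), and both other libraries lay below untreated ES cells, at 0.879 (0.843 to 0.916) for SB431542 and 0.862 (0.826 to 0.899) for myotubes. The reference library was thus the higher of the 2 ES libraries here. In the distal part the counts were 5478, 5552, 5335 and 5822 in the same order, with ratios of 0.988, 1.03 and 1.07 (1.03 to 1.11 for pro-B). Its last bin of 100 kb, from 117400001, was below untreated ES cells in pro-B cells at 0.677 (0.600 to 0.762, 462 against 689 reads) and in myotubes at 0.791 (516 reads).

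Within the stretch without pro-B reads the other libraries were close to each other. Untreated ES cells had 290 reads there, SB431542-treated cells 311, myotubes 261 and pro-B cells 0. The pro-B count is 0 by the way the stretch was drawn, from one pro-B read to the next, so it is a description. Against the limit that a count of 0 allows, 3 reads, it was at least 95.8-fold lower than in untreated ES cells. This fold is not an exact interval and leaves out the counting error of the untreated ES reads. The SB431542 ratio was 1.05 (0.888 to 1.23) and the myotube ratio 0.951 (0.801 to 1.13). Among 2-place lines, which may belong to a copy elsewhere, pro-B cells had 24 in the stretch against 332, 303 and 299. That was 0.0729 times the untreated ES level (0.0461 to 0.110). The 24 lines were scattered over 19 of 144 whole windows with at most 2 in any of them, whereas untreated ES cells had lines in 82 windows and up to 19 in 1.

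Pro-B reads were dense up to the near border of the stretch and nearly absent in the first 10.5 kb past its far border. In the 10 kb before it there were 49 reads in untreated ES cells, 47 with SB431542, 37 in myotubes and 130 in pro-B cells, a pro-B ratio of 2.68 (1.91 to 3.80). The ratio was lower over wider spans before this border, at 1.80 over 50 kb (1.51 to 2.16, 341 against 191 reads) and 1.42 over 100 kb (1.25 to 1.62, 566 against 401 reads). Both spans contain those 10 kb. The ratio did not keep falling further out, as the bin of 100 kb from 113600001 was at 1.60 (720 against 455 reads). Pro-B reads just before the stretch were among the densest of the proximal part. Past the far border pro-B 1-place reads returned only after a second, shorter stretch. Only 2 pro-B reads parted the stretch from a second one of 10.5 kb, 114022514 to 114033048, with 39, 40 and 45 reads in the other libraries. Joined across these reads, pro-B cells had 2 reads over 156 kb against 329 in untreated ES cells, a ratio of 0.00613 (0.000740 to 0.0223), and 44 2-place lines against 343. In bins of 5 kb from the first base of the stretch, pro-B cells then had 11 reads against 8 in untreated ES cells at 155 to 160 kb. They had 1 against 6 in the next bin, 20 against 19 at 165 to 170 kb and 22 against 13 at 170 to 175 kb. In the 50 kb after the first stretch, which include the second one, the pro-B count was 109 against 125 in untreated ES cells (0.880, 0.674 to 1.15). There 2-place lines were higher, at 323 against 229 (1.42, 1.20 to 1.69). The 1-place count from 100 to 200 kb after the first stretch was 356 against 240 (1.497, 1.27 to 1.77). Myotubes were low over the 50 kb after the first stretch, with 57 reads (0.482, 0.346 to 0.664), although within that stretch they were close to ES cells. Of the 57 reads, 45 lay in the second stretch, where myotubes were also close to ES cells, so they were low only past it.

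**Figure D2:**
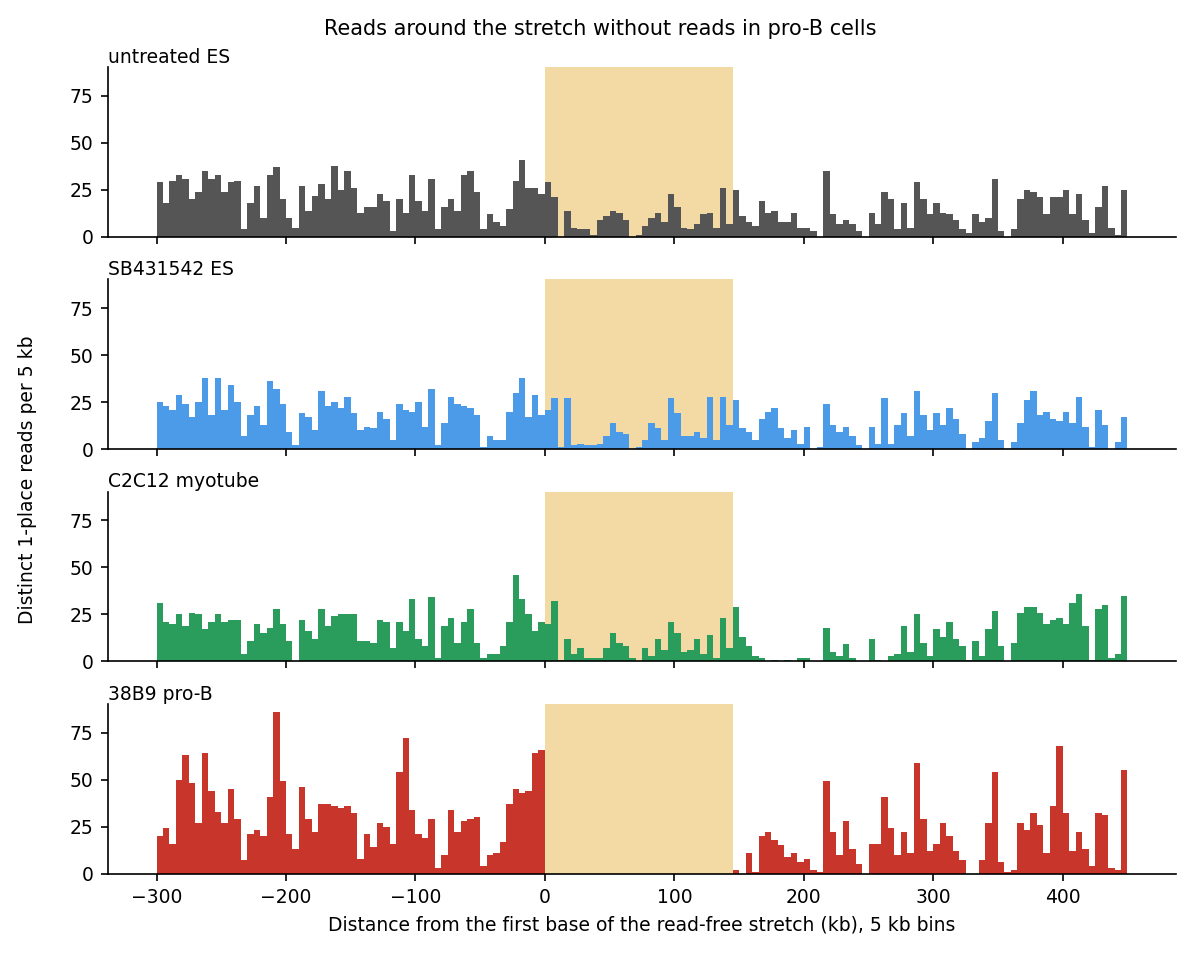
Distinct 1-place reads per bin of 5 kb (vertical axis) by distance from the first base of the stretch in kb (horizontal axis), 1 panel per library on the same scale. The shaded stretch is empty in the pro-B panel only, the columns just before it are the tallest of the last 50 kb there, and the myotube panel thins out between 165 and 215 kb.

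Past the stretch, the middle part carried the pro-B excess. It held 6376 reads in untreated ES cells, 6309 with SB431542, 4944 in myotubes and 16609 in pro-B cells. The pro-B ratio was 2.63 (2.55 to 2.71), the myotube ratio 0.819 (0.789 to 0.850) and the SB431542 ratio 0.965 (0.932 to 0.999). Untreated ES cells had 2.57 1-place reads per kb in the middle part, against 5.25 on chromosome 12 before the region. Beside them stood 2.76 2-place lines per kb, against 0.281 on chromosome 12 before the region. Pro-B cells had 6.70 1-place reads per kb in the middle part, more than their 5.20 on chromosome 12 before the region, and 7.85 2-place lines per kb.

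The pro-B ratio was higher in each further step of 500 kb from the stretch towards the telomere. It was 1.57 in the first, shorter step to 114500000 (1.46 to 1.69, 1748 against 1123 reads) and 2.49 from 114500001 (2.36 to 2.62, 4980 against 2020). It then was 2.75 from 115000001 (2.58 to 2.93, 3645 against 1337), 3.23 from 115500001 (2.95 to 3.54, 1975 against 617) and 3.36 from 116000001 (3.16 to 3.58, 4261 against 1279). The intervals of the last 2 steps overlapped, as did those of the second and the third. In the distal part the highest bin of 100 kb, from 116500001, was at 1.453. The myotube ratio took another course: 0.905, 0.872, 0.890 and 0.806 in the first 4 steps and 0.591 (0.539 to 0.648) in the last, where the pro-B ratio was highest. The SB431542 ratio stayed between 0.933 and 1.04 in all 5.

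**Figure D3:**
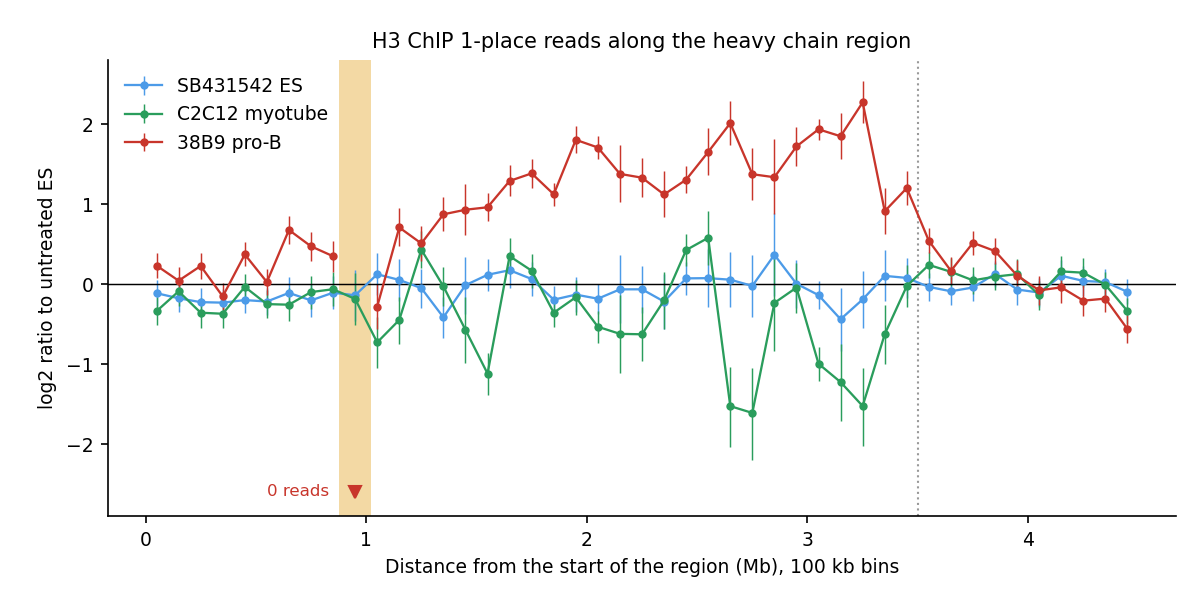
Log2 ratio of 1-place reads to untreated ES cells (vertical axis) in bins of 100 kb along the region (horizontal axis, Mb from its start), with 95% counting intervals as bars, for the SB431542, myotube and pro-B libraries. The pro-B line climbs from the shaded stretch to 2.27 (log2) near the end of the middle part and returns to near 0 in the distal part, the triangle marks the bin with 0 pro-B reads, and the bin with too few reads for the counts in the text is drawn too.

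Of the 45 bins of 100 kb, 44 averaged 100 or more reads across libraries, and a bin was counted as higher or lower from a 2-fold difference on. In pro-B cells 17 of the 44 were higher than in untreated ES cells, or 38.6%, where 0.651% of all autosomal bins were. All 17 lay in the middle part, which had 23 such bins, and they made up 11.2% of the 152 higher bins of the autosomes. The median log2 ratio of the 44 bins was 0.69, against -0.09 over all autosomal bins. One bin, from 113900001 inside the stretch, was lower in pro-B cells, where 0.188% of the autosomal bins were. In myotubes 5 bins were lower (11.4%, against 0.141% of autosomal bins), all in the middle part, and none was higher (0.0599%). With SB431542 no bin was higher or lower, as in the autosomes as a whole (0% in either direction).

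The 5 bins with the highest pro-B ratio in the region were also the 5 highest of all 23365 autosomal bins. The first, from 116200001, had 146 reads in untreated ES cells, 131 with SB431542, 48 in myotubes and 698 in pro-B cells, a pro-B ratio of 4.82 (4.03 to 5.81). The second, from 115600001, had 140, 149, 46 and 559 reads in the same order (4.03, 3.34 to 4.88). The third, from 116000001, was the richest in reads, with 584, 544, 277 and 2211 (3.82, 3.48 to 4.19). In the fourth, from 116100001, the counts were 131, 99, 53 and 467 (3.60), and in the fifth, from 114900001, they were 372, 348, 314 and 1286 (3.49). In each the pro-B library was the highest, and SB431542-treated cells were at 0.737 to 1.04 times untreated ES cells. Myotubes were at 0.347, 0.347, 0.501 and 0.427 times untreated ES cells in the first 4 and at 0.892 in the fifth. Thus 3 of the 5 bins that were 2-fold lower in myotubes were among the 5 with the highest pro-B ratio. The others were those from 114500001 (0.460) and 115700001 (0.327).

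At the other end of the order, the bin from 113900001 had 172, 160 and 143 reads in the ES, SB431542 and myotube libraries and 0 in pro-B cells. The bin from 114000001, which the stretch reaches into, had 233, 260, 133 and 190 reads, a pro-B ratio of 0.823 (0.676 to 1.00). Its 2-place lines went the other way, with 632 in pro-B cells against 453 in untreated ES cells, and with both kinds of reads together the ratio was 1.21 (1.09 to 1.34). The remaining bins among the 5 lowest all lay at the distal end, from 117200001, 117300001 and 117400001, at 0.866, 0.881 and 0.677.

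In bins of 10 kb, 333 of 450 averaged 20 or more reads, 144 of them in the middle part. Pro-B cells were at least 2-fold higher in 101, or 30.3%, beside 2.37% of all autosomal bins, and 96 of the 101 were in the middle part. They were lower in 9 (1.87% of autosomal bins), 4 of which began within the stretch. Myotubes were lower in 41 (0.826%), 39 of them in the middle part, and higher in 6 (0.455%), all there. With SB431542 a single bin was higher (0.126%) and 2 were lower (0.0816%). The bin with the highest pro-B ratio, from 116010001, had 17 reads in untreated ES cells, 24 with SB431542, 3 in myotubes and 130 in pro-B cells, a ratio of 7.72 (4.64 to 13.7). Only 1 of 223088 autosomal bins had a higher ratio. The bin from 115630001 had 12, 26, 14 and 81 reads (6.81, 3.69 to 13.7), and there the SB431542 library held more than untreated ES cells, 2.11 times (1.03 to 4.60). It was the single bin that was higher with SB431542. The bin from 116240001 had 29, 24, 9 and 185 reads (6.44, 4.34 to 9.88), that from 116090001 had 46, 52, 19 and 260 (5.70, 4.16 to 7.98), and that from 116260001 had 29, 24, 8 and 153 (5.32, 3.56 to 8.22).

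Single windows of 1 kb gave a finer scale. A window was counted as higher in a library from 20 reads on, provided that its scaled count was 3 or more times that of any other library. In pro-B cells 127 of the region's 4077 windows with a read in any library met this rule, or 3.11%, where 0.188% of autosomal windows did. Of these, 123 lay in the middle part, 4 in the proximal part (from 113190001, 113275001, 113768001 and 113875001) and none in the distal part. No window was higher in untreated ES cells, with SB431542 or in myotubes (0.00116%, 0.00174% and 0.00535% of autosomal windows). Of the 244 windows with at least 20 pro-B reads, 84 were 2 to 3 times above the highest other library and 33 less than that, with 3.001 as the smallest ratio inside the rule and 2.975 as the largest outside it. The one nearest to the stretch, from 113875001, lay within the 10 kb before its border described above.

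Windows at most 1 kb apart joined into 69 sites, of which 42 were 1 kb long and 14 were 3 kb or longer. These lengths depend on the grid and the limits of the rule and are not measured widths. In the middle part neighbouring sites were a median of 8 kb apart, with quartiles of 3 and 25.5 kb and a longest distance of 267 kb. The first site past the stretch began at 114326001, 304 kb on, and the last one at 116458001. The sites were crowded in a few places: 34 of the 127 windows were in the bin from 116000001, 20 in that from 115000001 and 13 in that from 114900001. The longest site, 116043001 to 116054000, held 141 reads in untreated ES cells, 119 with SB431542, 53 in myotubes and 550 in pro-B cells. A site from 115056001 to 115065000 held 74, 80, 48 and 396 reads, and one from 114904001 to 114912000 held 62, 60, 37 and 292. Every library, myotubes included, was above its own middle part mean of reads per kb at these sites, which were picked by a minimum of pro-B reads.

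The window with the most pro-B reads, from 116049001, had 109, against 33 in untreated ES cells, 17 with SB431542 and 10 in myotubes, 3.33 times the highest other library. The next, from 116052001, had 95 against 20, 23 and 7 (4.27 times). The window from 115514001 had the widest gap of the 10 with the most pro-B reads, with 64 against 8, 10 and 5 (6.62 times). Its 2-place lines went the same way, with 109 in pro-B cells against 16, 12 and 10. Likewise the window from 116053001 had 60 1-place reads against 13, 14 and 7, and 74 2-place lines against 12, 14 and 7. The window from 116241001 had 56 reads against 5, 11 and 1, and 33 lines against 2, 2 and 4. Other windows among the 10 had nearly no 2-place lines, such as that from 115059001, with 62 reads against 10, 12 and 7 and a single line in pro-B cells. High windows were therefore found both with many 2-place lines and with nearly none. Whether sequence with few such lines has a copy elsewhere was not checked.

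The spread over windows told the same difference in another way. In the middle part the median window held 1 read in untreated ES cells, 1 with SB431542, 1 in myotubes and 3 in pro-B cells, and the 95th percentile 9, 9, 8 and 25. The highest windows held 40, 43, 21 and 109 reads. The variance over windows was 4.27, 4.37 and 4.0 times the mean in the first 3 libraries and 15.1 times the mean in pro-B cells. In the distal part these values were 1.78, 1.78, 1.77 and 2.25. Variance over mean can rise with the mean itself, which in the middle part was 6.70 reads in pro-B cells and 2.57 in untreated ES cells. Windows without a read made up 33.5% of the middle part in untreated ES cells, 34.7% with SB431542, 45.6% in myotubes and 29.1% in pro-B cells, and 338 of its 2477 windows were empty in all 4.

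To see the high windows in reads that had not chosen them, windows were picked from reads at odd positions (at least 10 reads and 3 times the highest other library) and measured at even positions of the same libraries. This picked 125 windows, 121 of them in the middle part. At these windows the pro-B ratio to untreated ES cells was 4.17 (3.76 to 4.64, 1853 against 448 reads). It was 3.24 in windows 1 kb away, 2.95 at 2 to 4 kb, 2.72 at 5 to 9 kb, 2.43 at 10 to 19 kb and 2.06 (1.86 to 2.28) at 20 to 49 kb from the nearest of them. Pro-B reads were thus densest at the windows, but also above untreated ES cells in the most distant windows measured. In untreated ES cells too the density was higher at the windows, at 5.64 reads per kb and 10000000 autosomal reads at even positions, than 20 to 49 kb away, at 1.42. In myotubes these values were 2.79 and 1.35, and in pro-B cells 23.5 and 2.92. A minimum of 10 reads picks windows that can take 1-place reads. A higher density there in every library may be set in part by this choice, which was not tested. Myotubes were at 0.496 times untreated ES cells at the windows (0.419 to 0.585, 210 reads) and at 0.956 (0.848 to 1.08) 20 to 49 kb away, and with SB431542 the values were 0.910 (0.795 to 1.04) and 0.930 (0.826 to 1.05). The odd and even positions come from the same libraries, so this is no replicate.

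**Figure D4:**
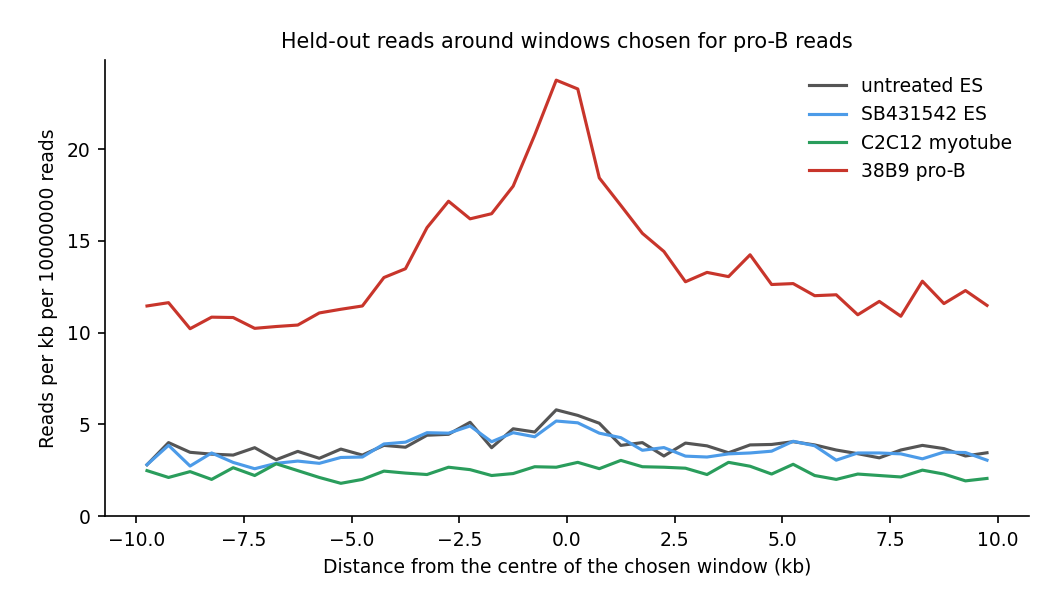
Reads per kb and per 10000000 autosomal reads at even positions (vertical axis) around the 121 middle part windows picked at odd positions, in steps of 500 bp by distance from the window's centre in kb (horizontal axis), 1 line per library. Pro-B reads peak at the centre and stay above the other libraries over the whole width, which can hold other picked windows. Both ES libraries peak slightly at the centre, and myotubes are the lowest library over the whole width.

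Reads in duplicated sequence went the same way as 1-place reads. The region held 7657 2-place lines in untreated ES cells, 7904 with SB431542, 5391 in myotubes and 20089 in pro-B cells. Of these the middle part held 6833, 7143, 4684 and 19448, a ratio of 2.87 (2.79 to 2.95) for pro-B cells, 0.724 (0.698 to 0.752) for myotubes and 1.02 (0.986 to 1.05) for SB431542. Over its 24 whole bins of 100 kb, the pro-B ratio was above 1 in 24 by 1-place reads and in 24 by 2-place lines, and at least 2-fold in 18 and 20. It ranged from 1.42 to 4.82 (median 2.52) by 1-place reads and from 1.24 to 4.92 (median 2.52) by 2-place lines. Across these bins the log2 ratios of both kinds of reads had a Pearson's r of 0.806 in pro-B cells, 0.617 in myotubes and 0.0803 with SB431542, as a description over bins of the same libraries. In steps of 500 kb the pro-B ratio of 2-place lines was 1.77, 3.31, 2.38, 3.18 and 3.90, which did not rise at every step as the 1-place ratio did. Both lines of a 2-place read may lie within the region and are then not independent of each other.

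**Figure D5:**
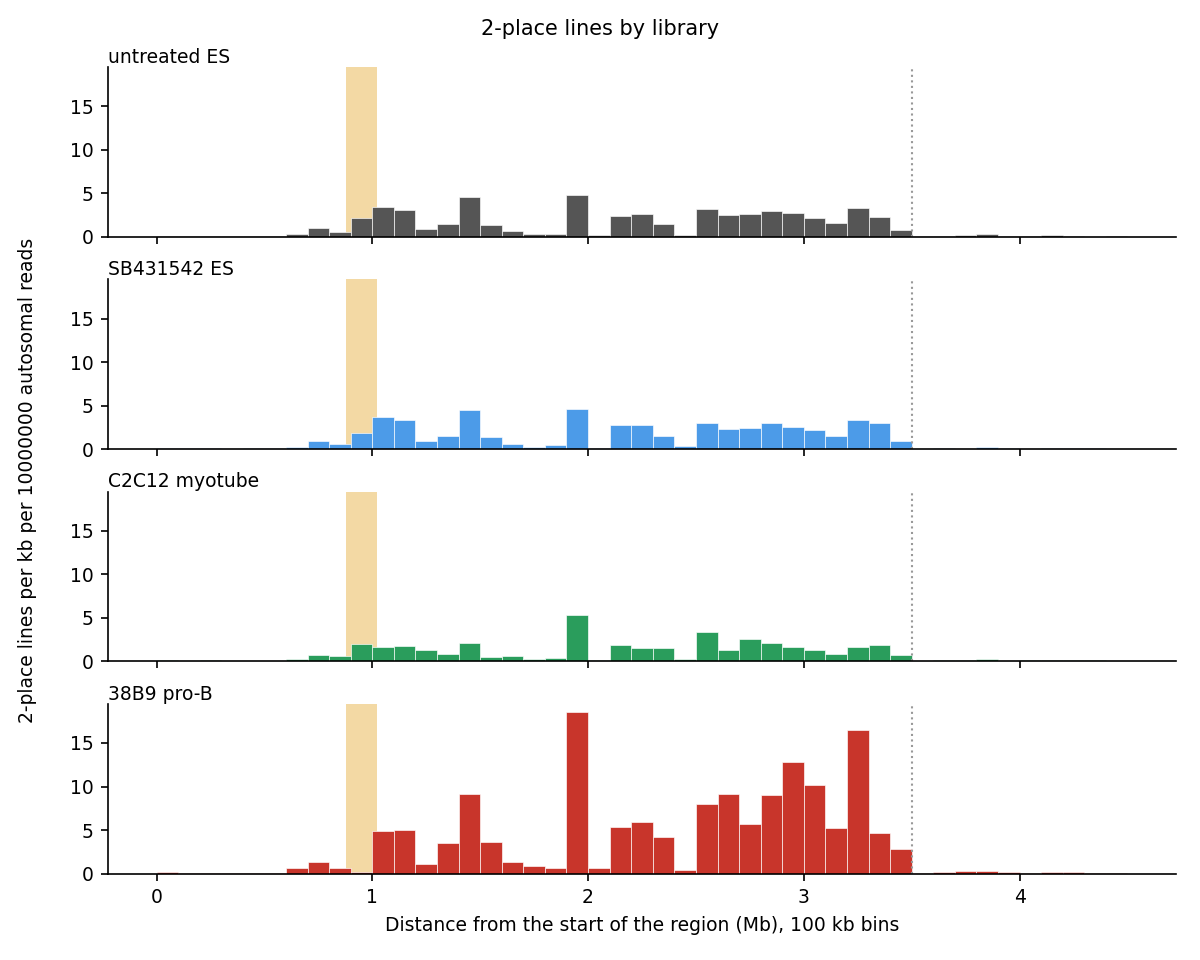
Lines of 2-place reads per kb and per 10000000 autosomal reads (vertical axis) in bins of 100 kb along the region (horizontal axis, Mb from its start), 1 panel per library on the same scale. The lines are concentrated between the shaded stretch and the dotted end of the middle part in all panels and are highest there in the pro-B panel, while inside the stretch the pro-B panel shows nearly none.

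By 1-place reads, myotubes had the most gaps within the region. Stretches of more than 10 kb without a 1-place read numbered 8 in untreated ES cells, 13 with SB431542, 24 in myotubes and 12 in pro-B cells, with a total length of 118, 154, 388 and 327 kb. Over the autosomes such stretches numbered 1968, 1987, 2261 and 2313 in the same order, so that pro-B cells had the most there. The counts were not scaled for depth, and the myotube library had the fewest autosomal reads (12432118). All 24 of the myotube stretches were in the middle part. With 2-place lines counted too, the order was not kept, with 4 such stretches in myotubes and 8 in pro-B cells, and of more than 20 kb each had 4 by 1-place reads. Most stretches held few reads in any library, and only 2 in myotubes and 3 in pro-B cells had at least 30 reads in every other library, which 1.02% and 0.821% of such stretches on the autosomes had. No stretch of either ES library did (0% on the autosomes). The longer one in myotubes, 114547416 to 114584979 (37.6 kb), had 168 reads in untreated ES cells, 199 with SB431542 and 406 in pro-B cells, so that myotubes were at least 53.0-fold lower than untreated ES cells. There myotubes had 6 2-place lines against 26, 33 and 88. The other, 115696407 to 115716399 (19.99 kb), had 50, 50 and 200 reads (at least 15.8-fold lower), but 63 2-place lines in myotubes against 121, 133 and 382. Beside the stretch of 145 kb and the one next to it, pro-B cells had no read from 115474846 to 115498538 (23.7 kb), where the counts were 37, 57 and 87 (at least 12.2-fold lower than untreated ES cells). Myotubes were the highest library there. As all these stretches were drawn by the absence of reads in 1 library, their folds are descriptions too. They use the same limit for a count of 0 and leave out the counting error of the untreated ES reads.

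Within the region, counts per bin in untreated ES cells were correlated most closely with those of the SB431542 library. Across the 45 bins of 100 kb, log2 counts (with 0.5 added) of the SB431542 library had a Pearson's r of 0.986 with untreated ES cells, myotubes 0.919 and pro-B cells 0.415. The pro-B value rested in part on the bin without pro-B reads, and over the other 44 bins it was 0.643. Outside the region, over 23321 autosomal bins, these were 0.944, 0.755 and 0.673. Within the 24 middle part bins the pro-B value was 0.887, so that bins rich in ES reads were also rich in pro-B reads there. The values describe bins of single libraries, which share mappability, and carry no p. Over the region 49.7%, 50.7%, 50.1% and 50.2% of the reads were on the plus strand, and 50.4% (Wilson interval 49.6% to 51.1%) in the middle part of the pro-B library. The interval left 50% in 2 of the 19 library and part combinations: 51.6% (50.4% to 52.9%) for SB431542 in the middle part and 58.6% (52.6% to 64.4%) for myotubes in the stretch without pro-B reads.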

How the data were processed

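H3 ChIP-seq reads of 4 libraries were analysed. The deposited files list signed positions of aligned reads, without counts or scaling by the authors. Bowtie had placed the reads on mm8, per the file headers, which set a 36-base seed, up to 2 mismatches in it, a quality limit of 70 for summed mismatches and up to 2 places. Bowtie's version is not given in the sources used here. The 2 sections of each file were taken as reads with 1 and with 2 places. From these, distinct positions and strands were counted in fixed bins and scaled to autosomal 1-place totals. Python 3.11.15, numpy 2.4.6 and scipy 1.17.1 were used, and the calls were tested on simulated data. Named were all parts and qualifying stretches, the 5 highest and 5 lowest bins of 100 kb and 5 highest of 10 kb by pro-B ratio, and the 10 windows with most pro-B reads. Other bins, windows and sites named in the text were chosen after their values were seen. The region, its parts and the rules were chosen with earlier results of these data known. No genome of this build was used here, so GC content was not analysed and no gene was placed.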

Additional observations from a re-analysis of the deposited data

How the results depend on the processing

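Over 20 other settings, no ratio whose interval excluded 1 changed direction, and 184 of 212 ratios and 51 of 84 counts moved by less than counting error or 1.5 times. Some of these 51 counts were 0 from the start and could not change under a stricter limit. In 7 cases a ratio whose interval included 1 crossed it, 6 of them SB431542 ratios within 0.960 to 1.05 and 1 the pro-B ratio of the 100 kb bin from 114000001, which went from 0.823 to 1.21 with 1-place and 2-place lines together. Scaling to the median autosomal 100 kb bin gave pro-B ratios of 1.83 (region), 1.32 (proximal), 2.87 (middle) and 1.17 (distal). With SB431542-treated ES cells as the reference, the pro-B ratios were 1.77 (region), 1.37 (proximal) and 2.72 (middle), and the myotube ratio of the region was 0.949. With repeats kept, pro-B ratios were 1.72 (region) and 2.73 (middle). With 1-place and 2-place lines together they were 1.98 and 2.76, the myotube ratios 0.852 and 0.770, the pro-B lines in the stretch 24, and the read-free stretches 4 in myotubes and 8 in pro-B cells. Ratios of pro-B 2-place lines were 2.53 (region) and 2.74 (middle) with distinct positions and 2.73 and 2.96 when scaled to the 2-place total. A fold of 1.5 gave 10 lower myotube bins of 100 kb. In 10 kb bins without a minimum, 76 were lower in myotubes and 152 higher in pro-B cells, in 5 kb bins 92 and 202, and with a fold of 3 there were 58 higher in pro-B cells. Windows higher in pro-B cells numbered 61 with at least 30 reads and 211 at 2 times the highest other library. Stretches of over 5 kb numbered 89 in myotubes and 55 in pro-B cells, and those of over 20 kb 4 in each. Windows picked at even positions had a pro-B ratio of 1.73 at 20 to 49 kb. Stricter or looser limits set these counts by construction, and the cause of the other differences was not tested. Joining the pro-B stretch across 2 reads, and moving the distal edge to the last bin with 40% 2-place lines, were chosen after seeing the data. The first put 2 pro-B reads in the stretch. No paired analysis was possible because each group holds 1 library, and no replicate could be left out of a group. With the SB431542 library left out, 156 windows were higher in pro-B cells. Depth limits the 1 kb windows most, since the median middle part window held 1 to 3 reads.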
